A study of Mus musculus with 4 samples.

Results

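The livers of mice on a high-fat diet were compared with those of mice on a low-fat diet, both injected with phosphate-buffered saline (PBS) as the control for clodronate liposomes. The comparison used 2 of the 4 arrays of the study, the one titled liver_HF_PBS_pool and the one titled liver_LF_PBS_pool, and all 34958 probe sets, of 45101 on the array, that carry exactly 1 gene symbol. All mice were male C57Bl/6J mice, 8 to 12 weeks old when feeding began. They ate a diet with 10% (low-fat) or 45% (high-fat) of its energy as fat, with palm oil in place of lard, for 20 weeks, and the injections into the peritoneal cavity were given in the last week. RNA from 8 livers (low-fat) or 10 livers (high-fat) was pooled in equal amounts and hybridised to 1 Affymetrix array per pool. A group is therefore 1 array, the spread between mice was not measured, and a difference between the pools has no test of its own. The other 2 arrays held livers of mice on the same diets after clodronate, an agent that kills macrophages; they served as a like comparison that shares no array with the PBS pair.

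The liver turns surplus carbohydrate into fatty acids, takes up fatty acids from the diet and from adipose tissue, stores them as triglyceride in lipid droplets, burns them in mitochondria and peroxisomes, and exports them in lipoproteins. Enzymes of fatty acid synthesis are under the control of SREBP-1c and ChREBP, which respond to insulin and carbohydrate, and those of fatty acid oxidation are under the control of the nuclear receptor PPARα. A high-fat diet of this kind supplies fatty acids in place of carbohydrate and is a standard way to bring about obesity and fatty liver in mice.

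Each gene was read from its brightest probe set, and 8650 of 18194 genes reached 4 on the log2 scale on at least 1 of the 4 arrays. A value below 4 was taken as too dim to measure. Of the 8650 genes, 8144 were at 4 or more on both PBS arrays, 360 on 1 of them, so that their difference is only a bound ("at least"), and 146 on neither. The PBS arrays were alike as wholes: their medians over all probe sets were 2.77 (low-fat) and 2.75 (high-fat), and 39.0% and 38.9% of the probe sets with 1 symbol were at 4 or more. The median difference between the diets, high-fat minus low-fat, was 0 over all genes, and 94.1% of the measured genes lay within 0.5 (log2) of 0. Dim genes scattered more: the SD of the differences was 0.32 for genes with a mean level between 4 and 6, and 0.15 for those at 12 or above. A 1.5-fold difference was thus found in 6.32% of the genes in the dimmest class and in 1.39% of those in the brightest class.

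Counted over all genes, 29 (0.335%) were 2-fold or more higher on the high-fat diet and 29 (0.335%) were 2-fold or more lower, 7 and 6 of them as bounds. At 1.5-fold the counts were 186 higher (2.15%) and 127 lower (1.47%). These shares are the background for the counts of gene groups given here. A test was possible only for the effect of diet averaged over the PBS and the clodronate pair, with an additive model in limma that has 1 residual degree of freedom. In it 75 genes (0.867%) rose and 71 (0.821%) fell at a Benjamini-Hochberg adjusted p under 0.05. "Rose" and "fell" are used here only of genes that passed this test, and the effect is given as the mean of the PBS and clodronate differences ± SD (n = 2). The residual is the gap between these differences, so a gene in which they disagree is less likely to pass, whatever the reason. The calls rest on a prior variance that depends on the mean level: with a common prior 0 genes passed, at a smallest adjusted p of 0.182, although 894 genes had an unadjusted p under 0.05 against 1141 in the model used. The model took values below 4 as deposited, so a call for a bound rests in part on values too dim to measure. With values below 4 set to 4, 60 genes passed in place of 146. Of the 29 higher and 29 lower genes, 16 rose and 20 fell; the PBS difference that chose them is part of the tested mean, so these counts do not support the PBS differences.

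**Figure D1:**
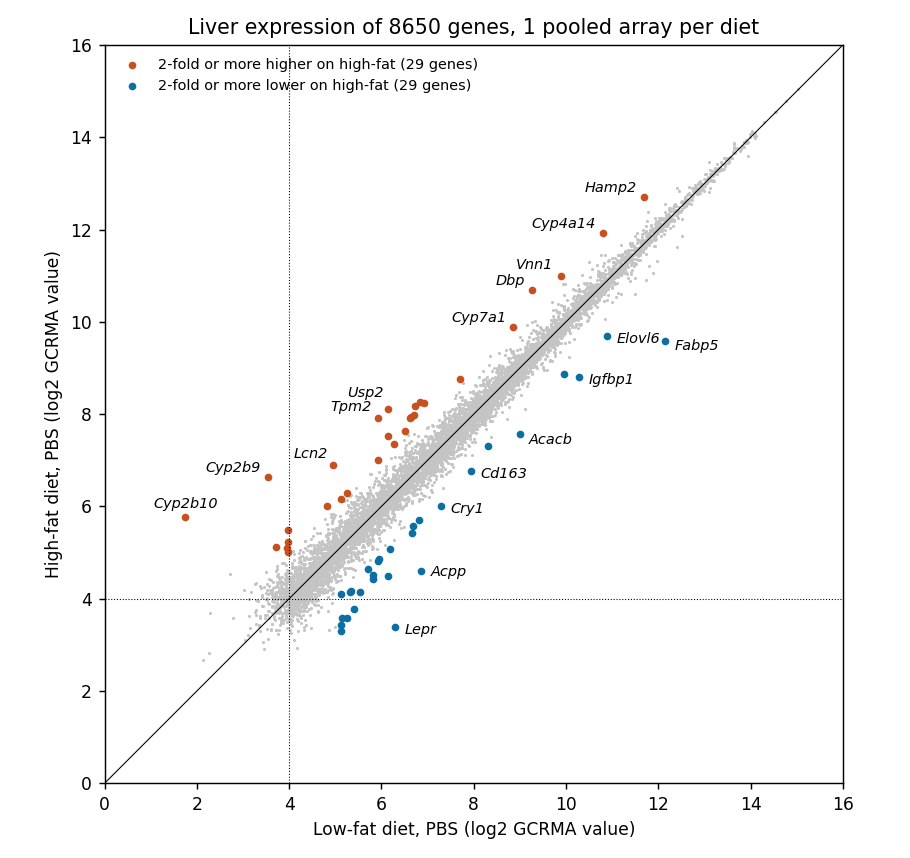
Level of each of 8650 genes (grey points) on the low-fat PBS array (x axis) and the high-fat PBS array (y axis), both as log2 GCRMA values; coloured points are the 29 genes 2-fold or more higher and the 29 genes 2-fold or more lower on the high-fat diet, the solid line marks equal levels and dotted lines mark the limit of 4. Most points lie along the line, Fabp5 and Lepr lie far below it, and Cyp2b9 and Cyp2b10 lie left of the limit with measurable levels on the high-fat array only.

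Fatty acid synthesis had the lowest median of the pathway lists. Of 23 genes analysed, 20 were lower on the high-fat diet, against 48.9% of all genes, 9 were 1.5-fold or more lower and 0 were 1.5-fold or more higher. The median difference was -0.30 (log2), against 0 over all genes, and 11 of the 23 fell while 0 rose. Acly, which splits citrate into acetyl-CoA in the cytosol, was at 12.52 on the low-fat array and at 11.85 on the high-fat one. Acss2, which makes acetyl-CoA from acetate, went from 11.74 to 10.90, 1.80-fold lower. Acaca, the cytosolic acetyl-CoA carboxylase that makes malonyl-CoA, was at 9.95 and 8.86, 2.13-fold lower. Acacb, the carboxylase at the mitochondrial surface whose malonyl-CoA restrains Cpt1a, was at 9.0 and 7.56, 2.71-fold lower. It fell by 1.29 ± 0.21 over both injections (limma, adjusted p = 0.000714).

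Further down the route, Fasn, fatty acid synthase, was at 12.40 and 11.63, 1.70-fold lower, and it fell by 0.74 ± 0.04 (limma, adjusted p = 0.00049). Elovl6, which extends palmitate to stearate, was at 10.89 and 9.69, 2.30-fold lower, and all of its 3 measured probe sets were lower, by between 0.76 and 1.20. Scd1, the stearoyl-CoA desaturase, differed less, at 13.94 and 13.60, but fell as well. Enzymes that supply NADPH were also lower. Me1, malic enzyme, was at 11.89 and 11.05, 1.80-fold lower, and Pgd, of the pentose phosphate route, was at 10.18 and 9.62. Pklr, the liver pyruvate kinase and a ChREBP target, was at 10.06 and 9.24, 1.77-fold lower. Pnpla3, a droplet lipase that SREBP-1c controls, was at 5.13 on the low-fat array and below the limit at 3.30 on the high-fat array, at least 2.19-fold lower.

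The regulators of this route differed less. Srebf1, which encodes SREBP-1c, was at 10.42 on the low-fat array and at 10.81 on the high-fat one, the highest difference of the list at 0.38. Nr1h3, the oxysterol receptor LXRα, differed by 0.30, and Mlxipl, which encodes ChREBP, by -0.24. Thrsp, a small protein that promotes fatty acid synthesis, was at 12.72 and 12.63, a difference of -0.09. None of these 4 passed the test. The desaturases Fads1 and Fads2, which act on polyunsaturated fatty acids, differed by -0.02 and 0.18.

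**Figure D2:**
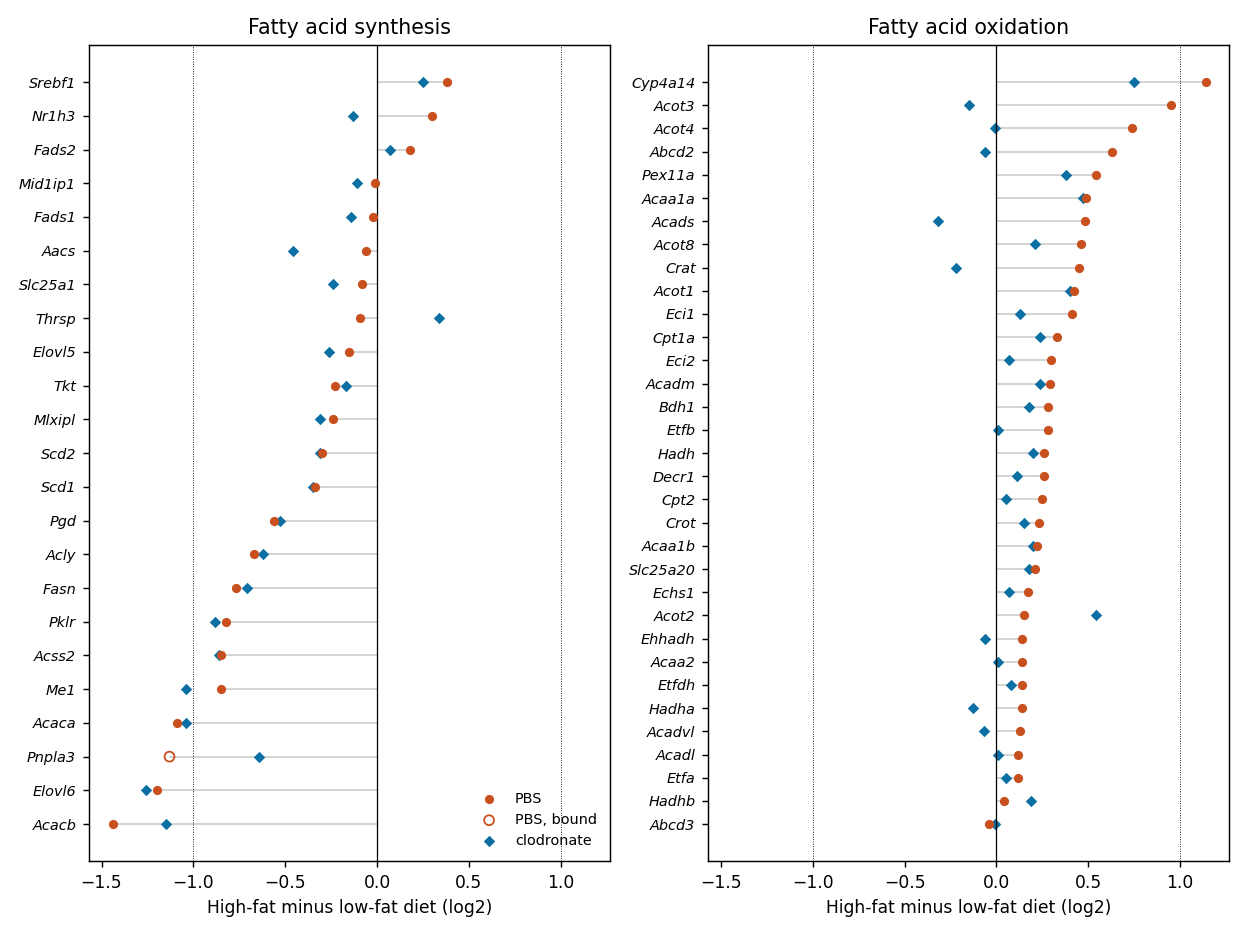
High-fat minus low-fat difference (log2, x axis) of each gene of fatty acid synthesis (left, 23 genes) and of fatty acid oxidation (right, 33 genes), with PBS (circles, open where only a bound is known) and with clodronate (diamonds); dotted lines mark 2-fold. In the left panel 20 of the 23 circles lie below 0 with most diamonds close to them; in the right panel 32 of the 33 circles lie above 0, most within 0.5.

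Fatty acid oxidation genes lay on the other side of 0, with small differences. Of 33 genes analysed 32 were higher on the high-fat diet, against 49.5% of all genes, with a median of 0.26. Only 4 of the 33 reached 1.5-fold and 1 reached 2-fold, and 2 rose in limma, Cyp4a14 and Pex11a. Cpt1a, which admits fatty acids into mitochondria, was at 10.51 and 10.84. The dehydrogenases of the mitochondrial spiral were slightly higher, with differences of 0.12 for Acadl, 0.13 for Acadvl, 0.29 for Acadm and 0.48 for Acads. Abcd3, a fatty acid transporter of the peroxisomal membrane, was the single member below 0, at -0.04. With clodronate the median of the list was 0.08 and 24 of the 33 genes were above 0, where the median of all genes was -0.08.

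The largest differences of that list were in ω-hydroxylation and acyl-CoA cleavage. Cyp4a14, a microsomal fatty acid hydroxylase, was at 10.80 and 11.93, 2.20-fold higher, and it rose by 0.94 ± 0.27 (limma, adjusted p = 0.00101). Its close relatives can share probes, and Cyp4a10 is not analysed here. Acot3 and Acot4, acyl-CoA thioesterases of peroxisomes, went from 5.44 to 6.39 and from 5.35 to 6.09, 1.93-fold and 1.67-fold higher. They did not pass the test and differed by -0.15 and -0.01 with clodronate. Abcd2, a peroxisomal transporter of long fatty acids, was 1.55-fold higher with PBS on the probe set used. All of its 3 measured probe sets were higher, by between 0.63 and 1.07, but Abcd2 differed by -0.06 with clodronate. Pex11a, which takes part in peroxisome division, was at 9.71 and 10.25, and rose by 0.46 ± 0.11 (limma, adjusted p = 0.0321).

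PPARα targets outside the oxidation route went both ways. Vnn1, a pantetheinase, was at 9.88 and 11.00, 2.18-fold higher, and its difference was nearly the same with clodronate, so that it rose by 1.12 ± 0.01 (limma, adjusted p = 0.000161). Aldh3a2, a fatty aldehyde dehydrogenase, was 1.74-fold higher and Slc22a5, the carnitine transporter, 1.72-fold higher; the first rose and the second did not pass. Pdk4, the kinase that shuts off pyruvate dehydrogenase, was lower instead, at 6.67 and 5.42, 2.37-fold, and it fell by 0.96 ± 0.41 (limma, adjusted p = 0.0481). Fgf21, a secreted hormone, was at 5.14 on the low-fat array and at 3.58 on the high-fat array, at least 2.20-fold lower. Ppargc1a, the coactivator PGC-1α, was at 6.08 and 5.16, 1.89-fold lower on the probe set used and lower on all of its 4 measured probe sets, by between 0.17 and 1.35. Ppargc1b, its relative PGC-1β, was higher, at 5.49 and 6.18. Neither coactivator passed the test. Ppara itself was at 11.06 and 11.38, a difference of 0.31 with PBS and of 0.33 with clodronate (limma, adjusted p = 0.0546). The 15 genes of this list had a median of 0.19, with 4 of them 1.5-fold or more higher and 3 lower.

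Among genes of fatty acid uptake and binding, Fabp5 showed the largest measured difference of all genes. Fabp5, an epidermal type of fatty acid binding protein, was at 12.15 on the low-fat array and at 9.58 on the high-fat one, 5.95-fold lower, with a second probe set at -2.76. It fell by 2.27 ± 0.42 over both injections (limma, adjusted p = 7.3e-05). Other binding proteins did not share this: Fabp1, the main liver form, differed by 0.03 and Fabp4, the adipocyte form, by 0.09. Fabp2, the intestinal form, was at 10.82 and 11.27 and rose. Lpl, lipoprotein lipase, was at 7.96 and 7.11, 1.81-fold lower, and fell by 1.24 ± 0.55 (limma, adjusted p = 0.0154). Cd36, a fatty acid transporter and scavenger receptor, was at 9.26 and 9.99, 1.66-fold higher, and rose by 0.88 ± 0.21 (limma, adjusted p = 0.00244). Of the 15 genes in the group, 1 was 1.5-fold or more higher and 2 were lower, with a median of 0.01.

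In the lipid droplet group 12 of 14 genes analysed were above 0, with a median of 0.15. Fitm1, a protein of the endoplasmic reticulum that helps to partition triglyceride into droplets, was at 6.73 and 8.18, 2.74-fold higher, and rose by 1.27 ± 0.27 (limma, adjusted p = 0.00244). Pparg, the adipogenic nuclear receptor PPARγ, was at 4.96 and 5.78, 1.76-fold higher, and did not pass (limma, adjusted p = 0.122). The coat proteins differed little: Plin2 was at 12.09 and 12.12, and Plin5 at 9.22 and 9.33. Cidea and Cidec, which fuse droplets and are typical of adipocytes, were below 4 on all 4 arrays. Cidea was at 2.21 and 3.89, so a difference in it could not be measured.

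Triglyceride synthesis and lipoprotein genes were mostly near 0. Of 13 genes of triglyceride synthesis and export 0 reached 1.5-fold, with a median of 0.10; the largest differences were those of Dgat1 and Gpat4, at 0.53 and 0.50, while Dgat2, the other diacylglycerol acyltransferase, differed by 0.10. Among 21 apolipoproteins and lipoprotein receptors 0 reached 1.5-fold, and Apoa1, Apob, Apoc3 and Apoe each differed by 0.03 or less. Angptl8, an insulin-dependent inhibitor of Lpl, was at 9.15 and 8.60 and fell, as did Pltp, the phospholipid transfer protein, at 11.39 and 10.88, and Apom, at 12.32 and 12.08. Lipg, endothelial lipase, was at 4.81 and 6.01, 2.30-fold higher on the probe set used and higher on another, and rose by 0.99 ± 0.29 (limma, adjusted p = 0.0445).

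Cholesterol and bile acid genes differed from each other. Cholesterol synthesis had a median of -0.08, with 14 of 22 genes below 0 and 0 at 1.5-fold; Pmvk and Fdps, enzymes that act after mevalonate, fell, and Msmo1, a later sterol demethylase, rose. Srebf2, their main regulator, was at 5.97 and 5.91. In bile acid synthesis, Cyp7a1, the rate-limiting enzyme, was at 8.85 and 9.89, 2.06-fold higher, and its second probe set was higher by 0.87. With clodronate Cyp7a1 differed by -0.32, and it did not pass the test. Cyp8b1, Cyp27a1 and Cyp7b1, the other hydroxylases of the pathway, differed by -0.18, 0 and 0.06. Abcc3, which exports conjugates into the blood, was at 9.33 and 10.02, 1.61-fold higher, and rose. The 20 genes of the group had a median of 0.06.

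Genes of xenobiotic metabolism were mostly higher on the high-fat diet. Of 23 cytochromes P450 and receptors 22 were above 0, against 49.5% of all genes, with a median of 0.20, and 5 were 1.5-fold or more higher. Cyp2b9 and Cyp2b10, a pair of closely related P450 genes, crossed the limit of 4: Cyp2b9 was at 3.54 and 6.64, at least 6.23-fold higher, and Cyp2b10 at 1.75 and 5.77, at least 3.42-fold higher. Cyp2b9 was also higher with clodronate, at 3.60 and 5.90, and rose, whereas Cyp2b10 was below 4 on both clodronate arrays, at 2.04 and 3.10. Nr1i3, the receptor CAR that controls Cyp2b10, was at 8.35 and 9.26, 1.88-fold higher, and did not pass (limma, adjusted p = 0.0632). Nr1i2, the related receptor PXR, differed by 0.13 and its target Cyp3a11 by 0.07. Cyp1a2 was at 11.77 and 12.38, 1.52-fold higher, and rose by 0.63 ± 0.04 (limma, adjusted p = 0.00101). Ahr, the aryl hydrocarbon receptor that controls it, differed by 0.52. In the Cyp2c family Cyp2c54 was 1.60-fold higher and Cyp2c50, which rose, 1.30-fold. Of 35 conjugating enzymes and NRF2 targets 1 was 1.5-fold or more higher, Sult1b1, a sulfotransferase, at 7.60 and 8.35, which rose, as did Ces1g, a carboxylesterase, at 10.14 and 10.72. Nqo1, a marker of NRF2 activity, was below 4 on all 4 arrays.

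Genes of insulin action and glucose metabolism held a few large differences among many near 0. Igfbp1, a binding protein of insulin-like growth factors that insulin represses through FOXO1, was at 10.28 and 8.81, 2.77-fold lower, and fell by 1.12 ± 0.49 (limma, adjusted p = 0.00407). G6pc, glucose-6-phosphatase, the last step of glucose output, was at 11.50 and 10.61, 1.85-fold lower, and fell by 0.91 ± 0.03 (limma, adjusted p = 0.000294). Pck1, which opens gluconeogenesis and is also a FOXO1 target, was at 13.14 and 13.17. Insr, Irs1 and Akt2, of the insulin signal itself, differed by -0.03, 0.15 and 0.16. Trib3, a pseudokinase that binds Akt, was at 4.35 and 5.25, 1.86-fold higher, and did not pass. Foxo3 was 1.74-fold higher and rose, although its second probe set was higher by only 0.23, and Foxo1 differed by 0.38 with PBS and -0.39 with clodronate. Of the 22 glucose genes 15 were below 0, with a median of -0.06, and 2 were 1.5-fold or more lower, G6pc and Pklr, both of which fell.

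Lepr, the leptin receptor, was at 6.30 on the low-fat array and at 3.39, below the limit, on the high-fat array, at least 4.91-fold lower. The clodronate arrays gave 6.83 and 3.32, at least 7.11-fold lower, and the gene fell (limma, adjusted p = 0.000161), with both high-fat values below 4. Leprot, which shares the start of the Lepr gene, was at 8.21 and 8.05, a difference of -0.16. Adipor1 and Adipor2, the adiponectin receptors, differed by 0.02 and -0.10. Of growth hormone signalling, Ghr, the receptor, differed by -0.06, Igf1 by 0.15 and Socs2, a feedback inhibitor, by -0.38. Bcl6, a repressor that growth hormone lowers, was at 9.0 and 9.67, 1.59-fold higher, and rose by 0.67 (limma, adjusted p = 0.00647). Egfr, the receptor for epidermal growth factor, was at 11.08 and 10.54, and fell, as did Serpina12, which encodes vaspin, at 11.97 and 11.31, and Elovl3, a fatty acid elongase typical of male liver, at 11.79 and 11.20. The 26 genes of the list had a median of -0.03.

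Clock output genes had the highest median of the pathway lists, 0.47, with 6 of 15 genes 1.5-fold or more higher and 0 lower, and 4 rose. The liver clock runs on a loop in which CLOCK and BMAL1 (Arntl) bind the E-box CACGTG and switch on Per, Cry and Nr1d1, whose products shut them off, and its output runs through the factors DBP, TEF and HLF, which bind D-boxes such as TTATGTAA against the repressor NFIL3. The 4 promoter stretches below, from RefSeq on build GRCm38.p6, show where these letters stand in genes of the lists, written along the gene's strand with the motif in capitals: D-boxes for Per3, chr4:151044807-151044879 on the minus strand, and E-boxes for Tef, chr15:81802518-81802577 on the plus strand, Per1, chr11:69098755-69098814 on the plus strand, and Cry1, chr10:85185083-85185142 on the minus strand.
Per3: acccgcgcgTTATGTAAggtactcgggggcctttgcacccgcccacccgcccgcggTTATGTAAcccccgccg
Tef: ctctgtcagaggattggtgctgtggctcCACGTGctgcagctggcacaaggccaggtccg
Per1: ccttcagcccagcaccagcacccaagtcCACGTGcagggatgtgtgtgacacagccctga
Cry1: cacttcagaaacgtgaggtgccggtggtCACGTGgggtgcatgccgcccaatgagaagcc

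All 4 stretches lie within the 250 bases before the start of the gene. Among 32851 mouse promoters in the same table, each running from 250 bases before the start to 50 after it and searched on both strands, 7.15% held CACGTG and 0.938% held TTATGTAA. The stretches shown are those of clock genes with a match. CACGTG was in 2 of the 6 core clock and 1 of the 7 output promoters found for named genes. TTATGTAA was in 1 of 6 and 0 of 7, so most held neither. In the same search CACGTG was in 1 of the 6 promoters found for named genes of fatty acid oxidation, that of Acot4. It was in 0 of the 8 found for fatty acid synthesis. A match describes the letters and is not a binding site measured here.

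The D-box factors were higher on the high-fat diet and their repressor was lower. Dbp was at 9.27 and 10.69, 2.68-fold higher, with a second probe set at 1.60, and rose by 1.32 ± 0.15 (limma, adjusted p = 0.000161). Tef was at 7.77 and 8.68, 1.88-fold higher, and rose by 0.83 ± 0.11 (limma, adjusted p = 0.00761). Hlf differed by 0.49 and Nfil3 by -0.56, and neither passed. Other genes of the output list went both ways: Slc45a3, Leo1 and Tspan4 differed by -0.38, -0.36 and -0.02, and Rgs16 and Tsc22d3 by 0 and 0.05. With clodronate 8 of the 15 genes were above 0 and 6 below, Pfkfb3 at -1.20 among them. Usp2, a ubiquitin protease, was at 6.15 and 8.12 with PBS, 3.93-fold higher, and at 5.39 and 8.44 with clodronate, and rose by 2.51 ± 0.76 (limma, adjusted p = 0.00062). Upp2, a uridine phosphorylase, was 1.87-fold higher and rose, and Wee1, a kinase of the cell cycle, was 1.99-fold higher and did not pass (limma, adjusted p = 0.0803).

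Within the core loop, the genes that CLOCK and BMAL1 switch on were mostly higher and the activators lower. Per3, which carries both D-boxes shown, was at 4.94 and 5.83, 1.85-fold higher, and rose by 1.20 ± 0.45 (limma, adjusted p = 0.0253). Nr1d1, which encodes REV-ERBα, was at 6.71 and 7.57, 1.81-fold higher, and Per2 at 6.09 and 6.72, 1.54-fold higher; neither passed. Per1 was at 3.74 and 4.49, so that only a bound of 0.49 is known. Arntl was at 4.32 on the low-fat array and 3.31 on the high-fat array, and Clock was at 8.53 and 8.14, lower on all of its 4 measured probe sets. Cry1 stood apart from the other repressors: it was at 7.29 and 6.01, 2.44-fold lower, with -0.38 for clodronate, and did not pass (limma, adjusted p = 0.106). Cry2 was at 7.18 and 7.60. Of the 13 core genes 3 were 1.5-fold or more higher and 1 was lower, with a median of 0.18. The hour at which the livers of each group were taken is not given in the sources used here, and its part in these differences was not tested.

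**Figure D3:**
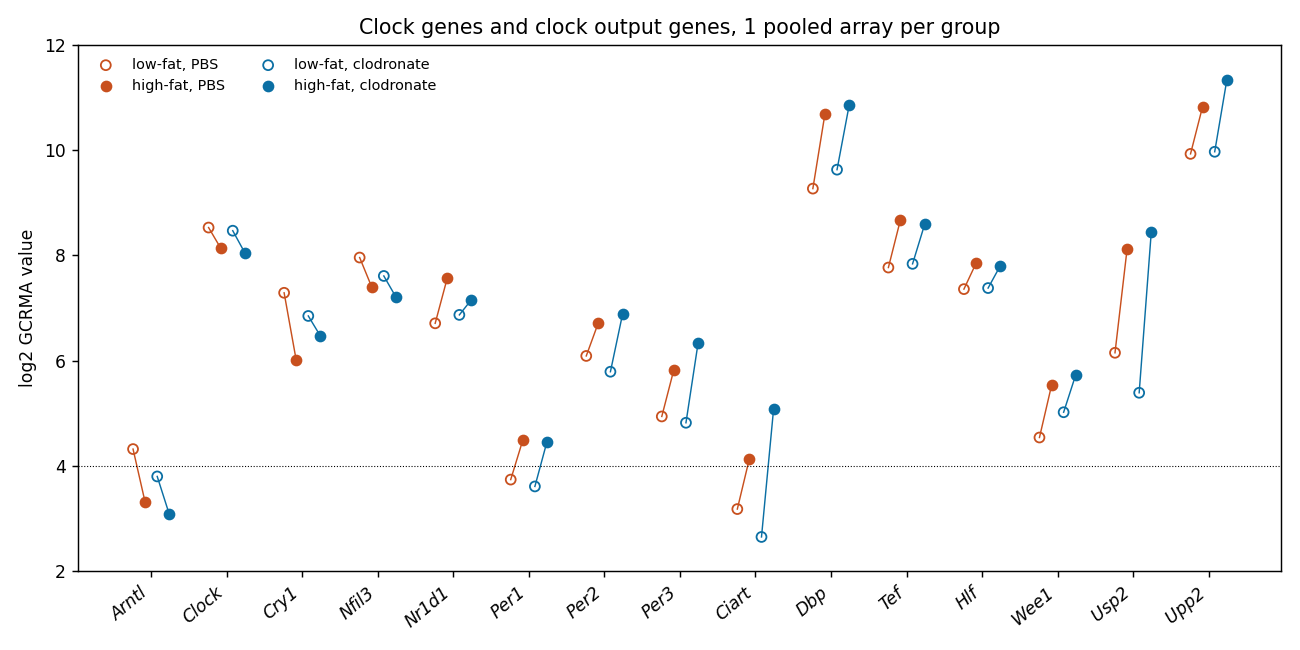
Levels (log2 GCRMA value, y axis) of 15 clock and clock output genes (x axis) on each of the 4 arrays; open circles are low-fat and filled circles high-fat arrays, joined by a line within PBS (orange) and within clodronate (blue), and the dotted line marks the limit of 4. Dbp, Tef, Usp2, Upp2 and Per3 are higher on the high-fat diet with both injections, and Clock, Cry1 and Nfil3 are lower with both, while Arntl is below 4 on both clodronate arrays, so that no difference could be measured there.

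Inflammatory and iron genes held single large differences. Lcn2, lipocalin 2, which binds bacterial iron carriers, was at 4.94 and 6.89 with PBS, 3.86-fold higher, but at 7.68 and 7.57 with clodronate, and did not pass. Saa1, serum amyloid A1, was at 9.97 and 10.81, 1.79-fold higher, and rose by 0.91 ± 0.10 (limma, adjusted p = 0.000457); Saa4 rose as well, by 0.53 ± 0.07 (limma, adjusted p = 0.00728). Saa1 and Saa2 are near copies that probe sets may not tell apart. Mt1 was at 6.09 and 6.78, 1.61-fold higher, but at 7.66 on both clodronate arrays, and did not pass. Lrg1, Saa2 and Steap4 differed by 0.42, 0.36 and 0.35. Fibrinogen chains lay between -0.08 and -0.05, and Hp, haptoglobin, was at 0.09. Orm2 differed by -0.20 with PBS and by 1.62 with clodronate. The 23 genes had a median of 0.09, with 16 above 0 and 7 below, and 3 were 1.5-fold or more higher.

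Id1, a target of BMP and SMAD signalling in hepatocytes, was at 6.92 and 8.23, 2.48-fold higher, with 0.34 for clodronate, and did not pass (limma, adjusted p = 0.0939). Smad7, another such target, differed by 0.38 on the probe set used and by 0.81 on another. Hamp2, a copy of the hepcidin gene whose transcript probes may not fully separate from that of Hamp, was at 11.68 and 12.71, 2.04-fold higher, while Hamp itself was at 13.92 and 13.87. Cxcl1, a chemokine for neutrophils, was at 6.79 and 7.52, 1.66-fold higher, and rose by 0.91 ± 0.25 (limma, adjusted p = 0.0141). Its list, of cytokines, chemokines and NF-κB genes, had a median of 0, with 5 of 12 genes analysed above 0 and 7 below. Cxcl1 was the only 1 at 1.5-fold or more. Icam1, of the same list, differed by -0.57 with PBS and -0.46 with clodronate, and did not pass. Il1b, Il6, Tnf and Ccl2 were below 4 on all 4 arrays, so a difference in them could not be measured. Of 24 interferon response genes 12 were above 0 and 12 below, none at 1.5-fold, with a median of 0.

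Kupffer cell markers were lower in part. Marco, a scavenger receptor, was at 5.40 and 3.77, at least 2.63-fold lower, Cd163, the haemoglobin scavenger receptor, was at 7.95 and 6.77, 2.27-fold lower, and Folr2, a folate receptor, was at 5.79 and 5.07, 1.64-fold lower. Other defining markers hardly differed: Clec4f was at 9.40 and 9.42, Cd5l at 10.71 and 10.64, and Vsig4 at 9.91 and 9.66. Of the 13 markers 10 were below 0, with a median of -0.11, and 3 were 1.5-fold or more lower. Of 12 general macrophage markers 8 were below 0, with a median of -0.14 and a range from -0.42 for Adgre1 to 0.31 for Tyrobp. The lists also hold genes that hepatocytes express, such as C6 and Nr1h3. Summed over the markers, the linear level of the Kupffer list was 8391 with low-fat feeding and 7893 with high-fat feeding, and that of the macrophage list 5739 and 5325. On both clodronate arrays 6 of the 13 Kupffer markers were below 4, Clec4f, Vsig4, Timd4, Marco, Folr2 and Cd163, as were 7 of the 14 macrophage markers listed. In pooled tissue, fewer cells of a type and less RNA per cell cannot be told apart.

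Markers of hepatocytes, sinusoidal endothelial cells and stellate cells had medians near 0. The 10 hepatocyte markers, all at 11.29 or more, ranged from -0.05 to 0.03, so that the tissue read as liver in both pools. The medians were -0.05 for 15 sinusoidal endothelial markers, -0.04 for 9 stellate cell markers and 0.01 for 11 matrix genes, with 0 members of any of the 3 lists at 1.5-fold. Of the bile duct markers Krt7, Krt19 and Epcam were below 4, and Tff3, a trefoil peptide, was at 5.26 and 3.57, at least 2.40-fold lower. The other measured markers of that list went both ways: Krt8 and Krt18 differed by 0.22 and 0.04, and Sox9 by -0.33. Adipoq and Lep, of adipocytes, all 11 muscle genes and 12 of 13 lymphocyte genes were below 4 on all 4 arrays. Of 7 pancreatic genes only Cela1, an elastase, was measured, at 9.28 and 9.82, and it rose (limma, adjusted p = 0.0234). Among the 3 proliferation markers analysed, Rrm2 was at 6.43 and 5.54, 1.85-fold lower, and did not pass. Mcm6 and Pcna differed by 0.32 and 0.09. Among pericentral hepatocyte genes, which sit around the central vein, 9 of 10 were above 0 with a median of 0.27. At 1.5-fold or more were 3 of them, Cyp7a1, Lgr5 and Cyp1a2, with Lgr5 only as a bound, at 3.94 and 4.74. The 9 periportal genes lay between -0.05 and 0.07. With clodronate the pericentral median was -0.05. There Cyp7a1 and Lgr5 differed by -0.32 and -0.75, and Cyp1a2 by 0.66.

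**Figure D4:**
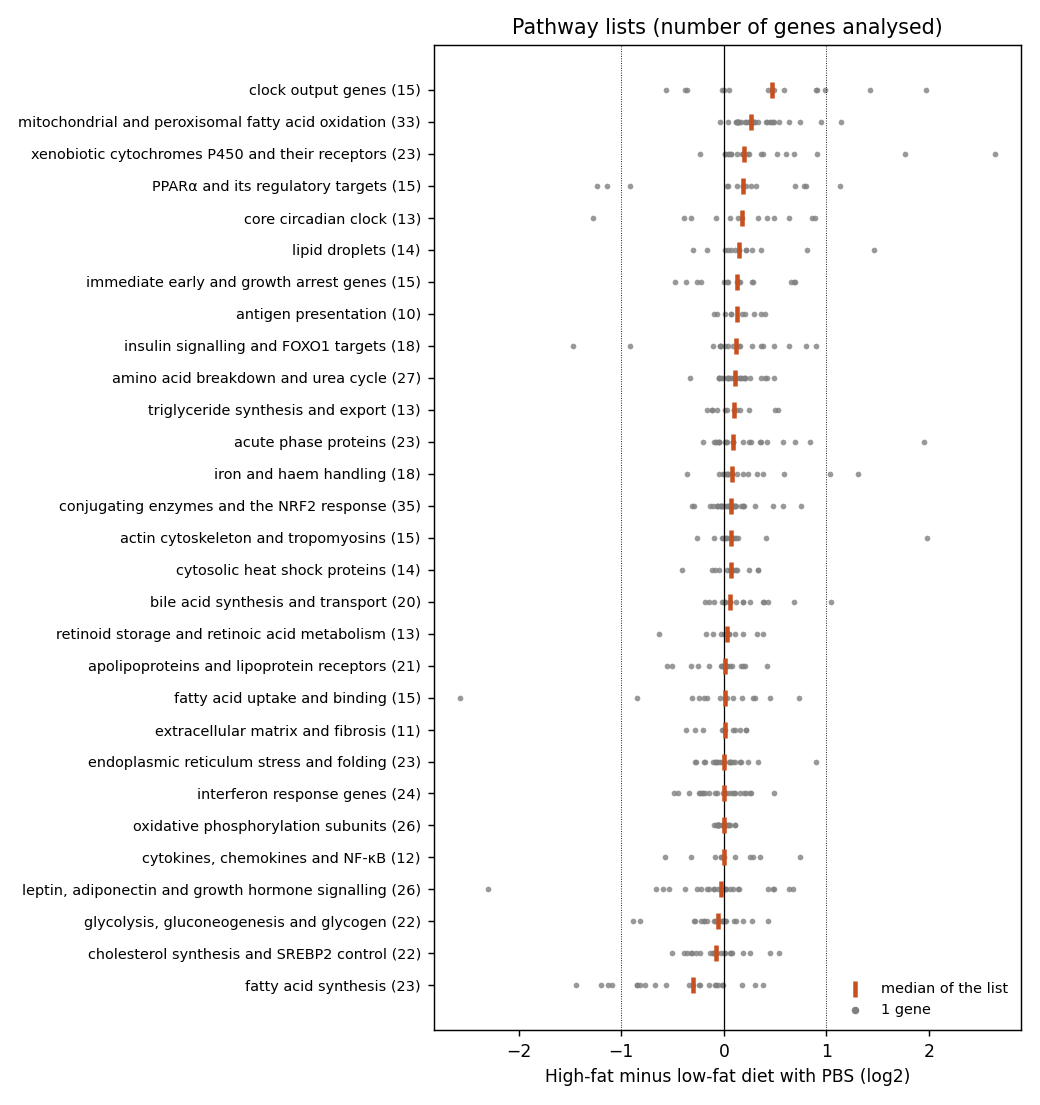
High-fat minus low-fat difference with PBS (log2, x axis) of every gene analysed (grey points) in each of 29 pathway lists (y axis, number of genes in brackets), with the median as an orange bar and 2-fold as dotted lines. The median is lowest for fatty acid synthesis at -0.30 and highest for clock output genes at 0.47, and the points of oxidative phosphorylation stay within 0.11 of 0.

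Several groups showed little difference between the diets. The 26 subunits of oxidative phosphorylation ranged from -0.10 to 0.11 with a median of 0. The list of fatty acid oxidation, which holds mitochondrial and peroxisomal genes, had a median of 0.26. The 23 genes of the endoplasmic reticulum stress response had a median of 0, with Hspa5, the chaperone BiP, at -0.04 and Ddit3, the factor CHOP, at -0.08; Trib3 was their single member at 1.5-fold. Amino acid breakdown and urea cycle genes were mostly a little higher, 21 of 27 above 0 with a median of 0.11 and 0 at 1.5-fold, and Got1, an aspartate aminotransferase, fell. Retinoid genes had a median of 0.03; Rdh11, a retinol dehydrogenase and SREBP target, was at 9.59 and 8.96, 1.54-fold lower, and fell, and Aldh1a1, which makes retinoic acid, was at 13.09 and 13.47 and rose. The immediate early and growth arrest genes held larger differences, with a median of 0.13 and 11 of 15 above 0. Of the 15 genes 3 were 1.5-fold or more higher, against 2.15% of all genes: Ccnd1, Gadd45a and Egr1, of which Egr1 rose. Dusp1, a phosphatase of MAP kinases, was at -0.48 and fell.

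In the actin list Tpm2 stood alone. Tpm2, the β form of tropomyosin, which winds along actin filaments, was at 5.93 and 7.91, 3.96-fold higher, with a second probe set at 2.29. On the clodronate arrays it was at 5.85 and 8.01, so that it rose by 2.07 ± 0.12 (limma, adjusted p = 0.0002). The other tropomyosins, Tpm1, Tpm3 and Tpm4, differed by 0.12, 0.14 and -0.26, and the muscle genes Acta1, Myl9, Cnn1 and Tagln were below 4 on all 4 arrays. The median of the 15 actin genes was 0.07.

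Further genes at 2-fold or more belonged to none of the pathway lists. Among the higher ones that rose, Slc46a3, a lysosomal transporter, was at 6.84 and 8.26, Acy1, aminoacylase 1, at 6.62 and 7.92, and Ildr2, a membrane protein of the endoplasmic reticulum, at 6.51 and 7.63. Inhbe, the liver-secreted activin subunit βE, was at 6.28 and 7.35, 2.10-fold higher, and Fam47e and the long non-coding Hectd2os were 2.11-fold and 2.07-fold higher; all 3 rose. Pdzrn3 and Krt23, a keratin, crossed the limit of 4 and were at least 2.35-fold and 2.01-fold higher. Fzd8, a Wnt receptor, was at 6.14 and 7.52, 2.61-fold higher, and did not pass, nor did Gm6958, Rnf186, Esyt1, Cntrl, Mettl15 and 9030619P08Rik, which were between 2.05-fold and 2.81-fold higher, the last 3 as bounds.

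On the lower side, Acpp, an acid phosphatase, was at 6.86 and 4.60, 4.78-fold lower, and fell by 1.88 ± 0.53 (limma, adjusted p = 0.00253). Mmd2, of the progestin and adiponectin receptor family, was at 6.14 and 4.50, 3.13-fold lower, and fell. Fst, follistatin, which binds activins, was at 5.33 and 4.16, 2.25-fold lower, and fell, and Inhba, the activin subunit βA, was at 5.12 and 4.09 and did not pass. Chka, choline kinase, which opens phosphatidylcholine synthesis, was at 8.31 and 7.30, 2.03-fold lower, with its 3 measured probe sets between -1.02 and -0.43, and fell. Tent5a, Mpzl1, Cdc42ep5, Chrna4 and Pdzk1ip1 were between 2.14-fold and 2.26-fold lower, Mpp4 at least 2.19-fold, and all 6 fell. The high-fat values of Mpp4 were 3.43 with PBS and 3.02 with clodronate, both below 4. Steap2, a metalloreductase, was 2.46-fold lower on the probe set used and fell, but its other measured probe set differed by 0.09. Qtrt2, Tsks, Rflna and Tomm40l were between 2.09-fold and 2.62-fold lower and did not pass.

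The 2-fold limit cut through a continuous range. Just inside it lay Krt23, Hamp2 and Fkbp5 at 1.01, 1.03 and 1.03 on the higher side, and Chka, Inhba and Tomm40l at -1.02, -1.03 and -1.06 on the lower side. Just outside lay Wee1 and Postn, periostin, at 0.99 and 0.96, Ncald just under 1, whose second probe set differed by only 0.07, and Pnpla5, Itih5 and Cd9 at -0.99, -0.99 and -0.98. Of the 6 higher and 5 lower genes at 2-fold that had several measured probe sets, 6 and 4 had all of them in the same direction, the exception being Steap2. Over all 3255 genes with several measured probe sets this held for 1774.

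Set beside the clodronate pair, most of the 58 genes pointed the same way. Of the 29 higher genes 23 were also higher with clodronate, 10 of them 2-fold or more, 5 were lower and 1, Cyp2b10, could not be measured there. Of the 29 lower genes 26 were also lower, 14 of them 2-fold or more, 1 was higher and 2, Marco and Cd163, could not be measured. In the clodronate pair 31 of the 8650 genes (0.358%) were 2-fold or more higher and 64 (0.74%) lower, and at 1.5-fold 146 (1.69%) were higher and 414 (4.79%) lower. At the 1.5-fold limit 119 of the 186 higher genes were also higher with clodronate and 66 were lower, and of the 127 lower genes 102 were also lower and 17 were higher. The median of all genes was -0.08 in the clodronate pair, so more genes lay below 0 than above it there. This favours a shared direction for the lower genes and works against it for the higher ones. The counts of shared direction were not set against the share of all genes on each side of 0. Whether the effect of diet differed between the injections could not be tested with 1 array per group.

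**Figure D5:**
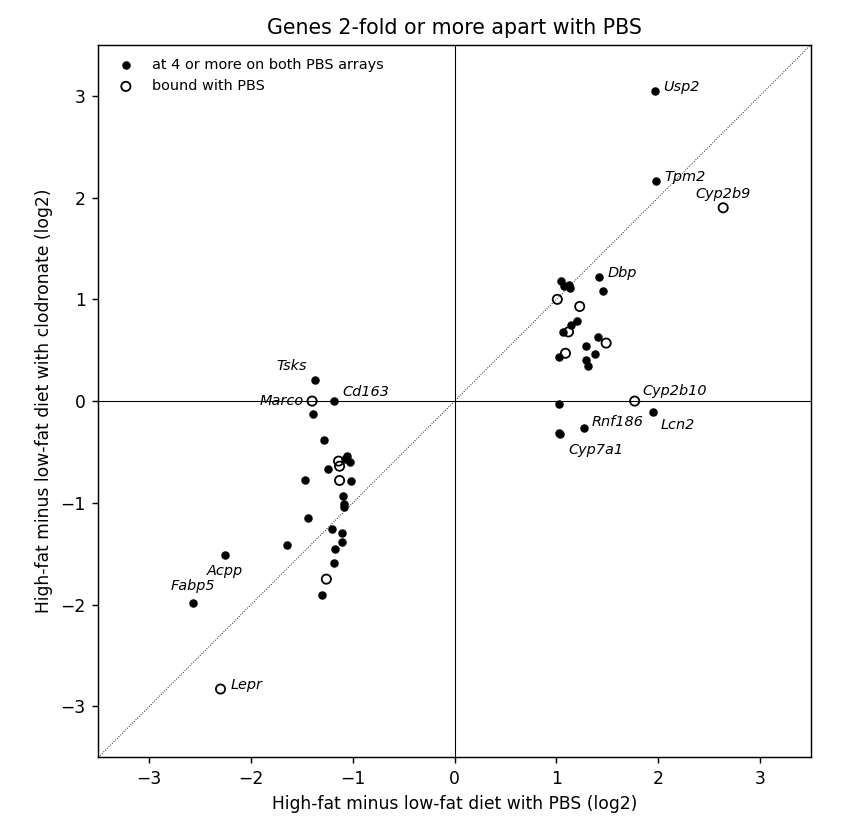
High-fat minus low-fat difference with PBS (log2, x axis) and with clodronate (log2, y axis) of the 58 genes 2-fold or more apart with PBS; open circles are bounds with PBS and the dotted line marks equal differences. Points lie mainly at the lower left and upper right, while Lcn2, Rnf186 and Cyp7a1 lie below 0 with clodronate, Tsks lies above it, and Cyp2b10, Marco and Cd163 lie at 0 because both clodronate arrays were below 4.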

How the data were processed

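Expression of 45101 probe sets on 4 Affymetrix arrays was deposited as log2 values; the authors ran GCRMA 2.24.1 (per the submitters' processing notes), which corrects background by probe sequence, normalizes across arrays and summarises probes. Per the labels' protocols, 5 µg of pooled RNA was used for each array, with RNA integrity numbers above 8. The number of arrays limits the precision.

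Gene names came from the platform annotation, updated through the RefSeq gene table of GRCm38.p6: 34958 probe sets had 1 symbol, 932 several and 9211 none. A gene took its brightest probe set, judged by the mean of all 4 arrays, and had to reach 4 on 1 array or more. Values below 4 were set to 4 for differences between arrays, and a list member below 4 on both arrays entered a median as 0. The diet effect over both injections was fitted with limma 3.58.1 in R 4.3.3 (diet plus injection, 1 residual and 8.46 prior degrees of freedom, Benjamini-Hochberg at 0.05 over 8650 genes) on the values as deposited. Its residual is the gap between the diet differences with PBS and with clodronate. A change of the diet effect with the injection, differences between the pools and technical scatter all enter that gap. They cannot be told apart here. The p-values carry no measure of the variation among the mice of a pool. In 20 simulated data sets of 8650 genes for this comparison, 98.7% of the genes made 2-fold different were found and 100% of those made 4-fold different, while 7.47% of calls were false. With a common prior the shares were 97%, 100% and 4.11%, whereas on the deposited values that prior called 0 genes, so the simulated data do not match these data and the shares do not give the rates of the calls reported.

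The 44 gene lists, 29 of pathways and 15 of markers, and the comparison itself were chosen with earlier results of these data known. Named genes are the 20 per direction with the largest measured difference, up to 10 bounds per direction, up to 8 members per pathway list and 4 per marker list, 3 genes on each side of the 2-fold limit, genes at 2-fold with a difference of 0.5 or more the other way with clodronate (0 genes), and regulators of the lists; other list members are named where a count or contrast in the text turns on them, and these were chosen after their values were seen. List members with no probe set of a single symbol are not analysed here. Promoters, 250 bases before to 50 after the start, came from RefSeq, build GRCm38.p6. Tables and plots were made with Python 3.11.15, pandas 2.3.3, numpy 2.4.6 and matplotlib 3.10.9.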

Additional observations from a re-analysis of the deposited data

Results flagged for a closer look

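Of the 58 genes that were 2-fold or more apart between the diets with PBS, 6 had a difference of the other sign with clodronate; the difference between the injections was not tested. Lcn2 differed by 1.95 with PBS and -0.11 with clodronate (log2, high-fat minus low-fat), Rnf186, a ubiquitin ligase, by 1.27 and -0.26, Cyp7a1 by 1.04 and -0.32, and Hamp2 by 1.03 and -0.31. Fkbp5, a co-chaperone of steroid receptors, differed by 1.03 and -0.03. Tsks, a testis kinase substrate, differed by -1.37 and 0.21, at levels between 4.43 and 5.81 on the 4 arrays. Lcn2 was at 7.68 on the low-fat clodronate array against 4.94 on the low-fat PBS array, and Cyp7a1 at 9.48 against 8.85.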

How the results depend on the processing

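Replicate arrays could not be paired, because each group has 1 array and the labels give no replicate numbers. The additive model pairs the diets only within each injection. Over the alternatives run, the count of genes 2-fold or more higher with PBS lay between 22 and 35 and that of lower genes between 23 and 36, apart from 46 higher and 38 lower when probe sets were counted in place of genes, and 15 lower with a floor of 5. The calls of limma depended on the model: with the common prior 0 genes rose and 0 fell, with values below 4 set to 4 there were 29 and 31, and with genes at 4 or more on all 4 arrays 42 and 48. All 60 genes called with values set to 4 were among the 146. Centring moved the split from 75 and 71 to 107 and 58, which raises the share of genes that rose, with 128 calls shared. Of 39 list medians, all kept within 0.1 (log2) under centring and with the probe set brightest on the PBS arrays. Elsewhere the core clock median moved from 0.18 to 0.33 without a floor and to 0.33 with the mean of a gene's probe sets, and that mean gave 0.10 for cytokines, -0.09 for matrix genes, 0.39 for pericentral genes and 0.14 for stellate cell markers. The bile duct median of 4 genes went from -0.14 to 0.02 and 0.04 with floors of 3 and 5, and that of 3 monocyte and neutrophil genes from 0 to -0.35 with a floor of 5, 0.53 without a floor and -0.19 after quantile normalization. The cause of these moves was not tested. Of 304 named genes 0 changed sign among differences of 1.5-fold or more. Dim genes and bounds are the least certain.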
